A study of Homo sapiens with 4 samples.

Results

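SR proteins are RNA-binding proteins with arginine- and serine-rich tails, and they help the spliceosome choose which exons enter the mature mRNA. The genes described are SRSF1, SRSF2, SRSF3, SRSF4, SRSF5, SRSF6, SRSF7, SRSF10, SRSF11 and TRA2B, the gene of the SR-like protein transformer 2 beta. They were chosen by gene name, and all 10 were found among the 58735 genes of the deposited count tables. The cells were HCT116, an established human colon cancer line grown in culture. The RBM25_sh cells carried an shRNA that knocks down RBM25, and the control_sh cells carried a control shRNA, with 2 libraries in each group. RBM25 is an RNA-binding protein with an arginine-rich domain that acts with the U1 snRNP at 5′ splice sites, so the comparison asks how the SR genes stand when another splicing regulator is reduced. How many shRNA sequences were used, how long after knockdown RNA was taken and whether the 2 libraries of a group came from separate cultures is unstated in the labels. The p-values therefore rest on the spread between libraries that may be technical repeats.

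SR proteins bind short enhancer sequences in exons through RNA recognition motifs, and their tails recruit the U1 snRNP and U2AF to the neighbouring splice sites. Kinases of the SRPK and CLK families phosphorylate the tails and so set import into the nucleus, storage in nuclear speckles and release to genes. Most SR genes limit their own output. When the protein is abundant it promotes inclusion of an exon of its own pre-mRNA that holds an early stop codon, a poison exon, and the resulting transcript is degraded by nonsense-mediated decay (NMD).

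Counts summed to 15528274 and 16335555 in the RBM25_sh libraries, against 15528869 and 16982663 in the control_sh libraries. RBM25 itself, which checks the labels, had 44.0 and 35.7 CPM (counts scaled to library size with TMM factors) in the RBM25_sh libraries, against 155.3 and 114.9 CPM in the control_sh libraries. Its log2 fold change was −1.76 ± 0.30 (SE, adjusted p = 0.0195, edgeR's quasi-likelihood test with Benjamini-Hochberg adjustment). This call was lost without RBM25_sh replicate 1 (adjusted p = 0.119) or without RBM25_sh replicate 2 (adjusted p = 0.202), both with RBM25 still lower in the RBM25_sh cells. Of 6 colon epithelial markers, 5 had at least 2020 counts in every library, and VIL1 had 1 count in RBM25_sh replicate 1 and 0 in the other libraries. Of 14 markers of other cell types 2 were abundant enough to be tested, COL1A1 and ACTA2. The T-cell gene CD3E and the endothelial gene CDH5 had 0 counts in every library. The collagen gene COL1A1 had 553 and 738 counts in the RBM25_sh libraries, against 618 and 1111 in the control_sh libraries, and the smooth muscle actin gene ACTA2 had 9 and 16 in RBM25_sh, against 51 and 72 in control_sh. For ACTA2 the log2 fold change was −2.15 ± 0.49, not called by edgeR (adjusted p = 0.0501) but called lower by DESeq2 (adjusted p = 0.0240) and by edgeR with the correction for GC content described below (−2.07 ± 0.41, adjusted p = 0.00706). ACTA2 shares 17.3% of its exon bases with ACTA2-AS1 and 12.8% with FAS, and VIL1 shares 44.0% with USP37, all on the opposite strand. The strand setting of the counting is unstated, so counts of ACTA2 and VIL1 are uncertain. Any part of the cells behind these markers in the values below was not tested. In bulk RNA of this kind, fewer cells of a type and less RNA per cell cannot be told apart.

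Gene totals of the 10 SR genes showed no change that passed the test after RBM25 knockdown. In edgeR's quasi-likelihood test 0 of 10 members were called higher and 0 of 10 lower at an adjusted p of 0.05, over 16091 genes tested, of which 0.653% were called higher and 2.4% lower. DESeq2 called 0 members, with 2.4% of all genes tested called higher and 4.34% lower, and limma-voom called 0 members, with 0.522% higher and 1.8% lower. At an unadjusted p of 0.05 the test picked 1 member, SRSF5, and 21.4% of all genes tested. The point estimates leaned one way: 9 of 10 log2 fold changes were above 0, as were 47.5% of those of all genes tested. The members' median was 0.33, that of all genes tested −0.04. In 6 of 10 members both RBM25_sh libraries lay above both control_sh libraries, and in 0 of 10 below them. Over all genes tested such a separation was found upwards in 23.9% and downwards in 27.9%. The counts of the 10 members together came to 2173.6 and 1864.1 CPM in the RBM25_sh libraries, against 1723.7 and 1539.7 CPM in the control_sh libraries.

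**Figure D1:**
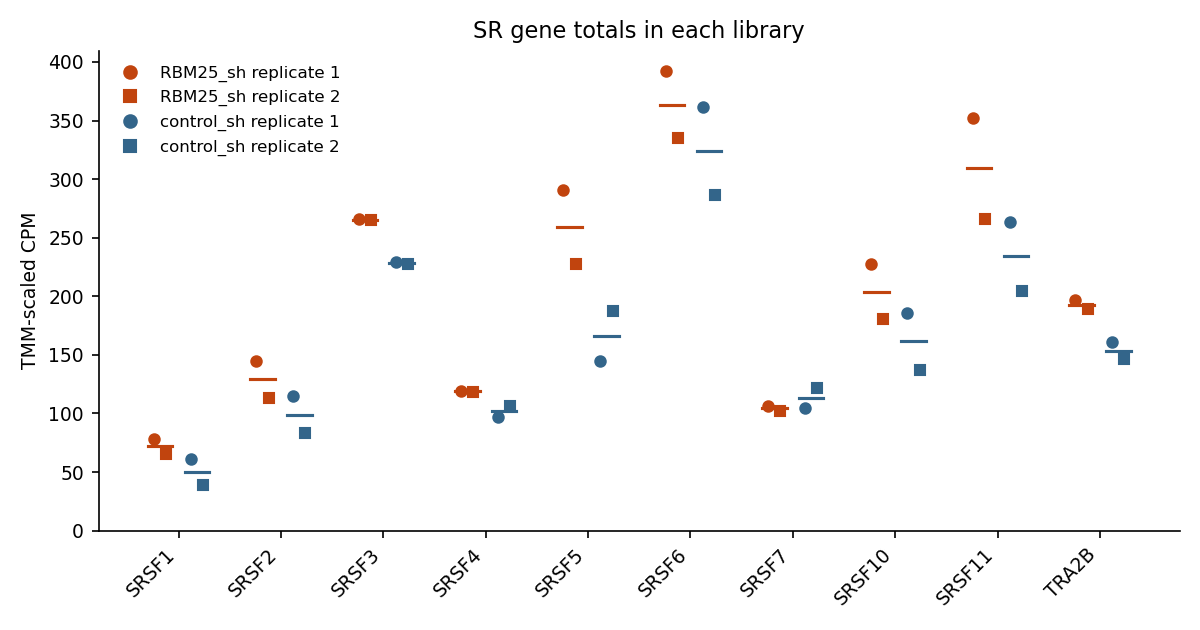
TMM-scaled CPM (linear axis from 0) of the 10 SR genes in each library, with RBM25_sh in orange to the left of control_sh in blue, circles for replicate 1, squares for replicate 2 and a bar at each group's mean of 2 libraries. SRSF1, SRSF3, SRSF4, SRSF5, SRSF11 and TRA2B had both RBM25_sh libraries above both control_sh libraries, and in SRSF2, SRSF6, SRSF7 and SRSF10 the groups overlapped.

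The 2 libraries of a group were not interchangeable. Replicate 2 stood above replicate 1 for genes rich in G and C and below it for genes poor in them, in both groups. Across 10378 genes the Spearman correlation of GC content with the log2 ratio of replicate 2 over replicate 1 was 0.84 in RBM25_sh and 0.82 in control_sh. Genes of 1 library are not independent, so these values describe the libraries and carry no p. The longest transcripts of the SR genes held between 36.6% (SRSF11) and 45.6% (SRSF2) GC, and all 10 lay below the median of 48.7% over the genes tested. The log2 fold change also followed GC content, with a Spearman correlation of −0.31 across the same genes, so that genes poor in GC tended to higher values in RBM25_sh. A second fit therefore removed, library by library, the smooth dependence of log2 CPM on GC content. This correction also takes away any difference between the groups that runs along GC content, and how much of the trend belongs to the knockdown cannot be told apart from it.

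With the GC correction the members' median log2 fold change was 0.15, against −0.02 over all genes tested, and 8 of 10 members were above 0. The corrected fit called 0 of 10 members higher and 0 of 10 lower, while 12.8% of all genes tested were called higher and 15.3% lower. In corrected CPM, 4 of 10 members had both RBM25_sh libraries above both control_sh libraries and 0 of 10 below, against 31.9% and 34.6% of all genes tested. The 4 members were SRSF1, SRSF2, SRSF5 and SRSF10. The corrected 95% intervals of SRSF1 and SRSF2 lay above 0, at 0.10 to 0.69 and 0.004 to 0.66 on the log2 scale, but neither adjusted p passed the threshold.

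**Figure D2:**
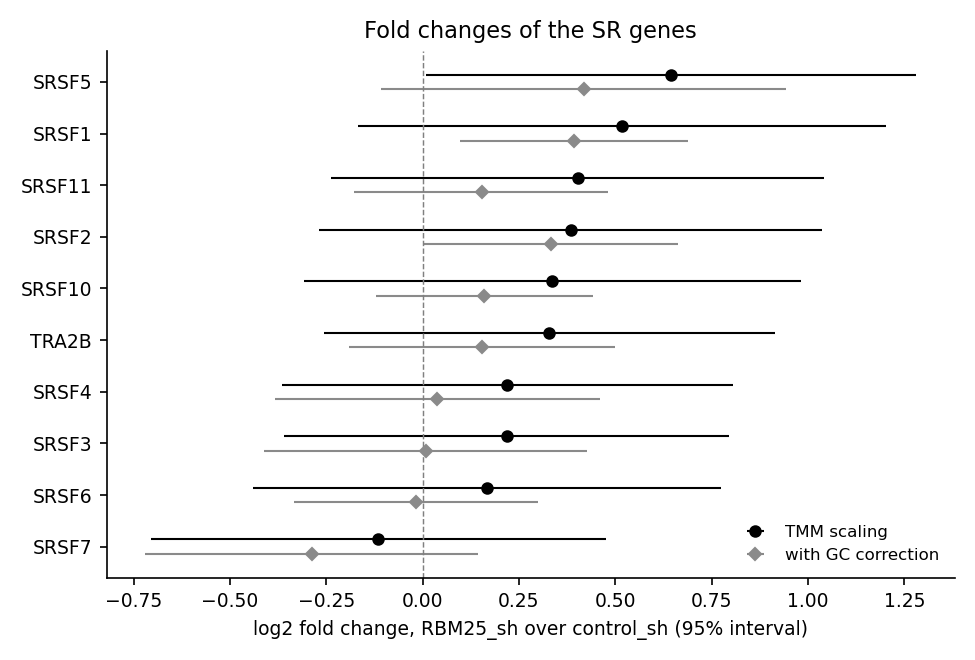
Log2 fold change of each SR gene, RBM25_sh over control_sh, from edgeR with TMM scaling (black circles) and with the GC correction (grey diamonds), with lines for 95% intervals of 2 libraries against 2. With TMM scaling the interval of SRSF5 alone, from 0.01 to 1.28, lies above 0, and with the correction those of SRSF1 and SRSF2 do.

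All 10 genes have at least 1 annotated NMD transcript in GENCODE 29, a class held by 42.7% of the 13084 protein-coding genes tested. A cassette exon with the early stop codon inside it was found in 6 of 10 members (60%), against 17.9% of those protein-coding genes. SRSF1, SRSF2, SRSF5 and SRSF10 had none. An exon counted as a cassette if it was an internal exon of an NMD transcript lying inside an intron of a coding transcript. Both splice sites of that intron also had to be used by the NMD transcript. Early stop codons that arise in other ways were not searched for. The members were chosen as genes regulated in this way, so these shares describe the choice. Whether the exons found limit a gene's own mRNA was not tested, and the stretches below show where each reading frame ends. Each holds the last 30 coding bases of the exon before it in lower case and the poison exon in capitals up to and including its stop codon (GENCODE 29 transcripts, GRCh38, 5′ to 3′ on the gene's strand). Where a gene had several stop-containing exons, the exon in the most NMD transcripts was taken, then the longest. SRSF3 also had a stop-containing exon of 98 bases, and SRSF7 had others of 69 and 276 bases.
SRSF3: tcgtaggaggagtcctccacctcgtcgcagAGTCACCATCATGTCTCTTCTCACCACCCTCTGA
SRSF7: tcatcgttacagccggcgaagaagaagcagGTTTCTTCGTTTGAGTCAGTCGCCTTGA
SRSF4: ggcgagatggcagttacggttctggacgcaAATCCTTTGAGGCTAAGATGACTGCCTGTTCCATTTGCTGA
SRSF6: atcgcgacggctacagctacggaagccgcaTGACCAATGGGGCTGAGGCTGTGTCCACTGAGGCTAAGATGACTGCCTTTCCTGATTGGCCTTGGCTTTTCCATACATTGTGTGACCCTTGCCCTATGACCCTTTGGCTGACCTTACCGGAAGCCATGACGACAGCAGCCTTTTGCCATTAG
SRSF11: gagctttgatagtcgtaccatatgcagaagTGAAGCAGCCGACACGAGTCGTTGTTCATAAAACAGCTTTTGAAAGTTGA
TRA2B: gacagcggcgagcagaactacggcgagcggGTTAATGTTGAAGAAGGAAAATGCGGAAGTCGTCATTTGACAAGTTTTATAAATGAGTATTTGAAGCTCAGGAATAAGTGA
The SRSF3 exon is 456 bases long (chr6:36599821-36600276, + strand) and reaches a TGA after 34 bases. The SRSF7 exon spans 449 bases (chr2:38748898-38749346, − strand) and reaches a TGA after 28 bases. In SRSF4 the exon has 195 bases (chr1:29159864-29160058, − strand) with a TGA after 41, and in SRSF6 it has 268 bases (chr20:43459153-43459420, + strand) with a TAG after 152. The SRSF11 exon has 117 bases (chr1:70231859-70231975, + strand) with a TGA after 50. The TRA2B exon has 276 bases (chr3:185931577-185931852, − strand) with a TGA after 81.

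The SRSF4 and SRSF6 exons shared an identical run of 20 bases, while the longest run shared by any other pair of the 6 exons was 7 to 10 bases. SRSF4 and SRSF6 encode closely related proteins. The motif GAAGAA is a sequence bound by the TRA2B protein. In the transcript sequence it occurred 3 times in the TRA2B exon, overlapping matches counted, and 1 time in the SRSF7 exon. Over the 3739 stop-containing cassette exons of all genes 11.5% held it, and 16.7% of the 436 of these that have 200 to 300 bases. The motif CGGGCA, described as an RBM25 binding sequence in BCL2L1, was found in 0 of the members' stop-containing cassette exons and in 2.4% of the 3739 of all genes. These are letter matches and not shown binding sites. The deposited counts add coding and NMD transcripts of a gene together, so the use of these exons was not analysed here and every value below is a gene total.

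SRSF1 and SRSF2 are the founding members of the family, known as activators of exons with weak splice sites, and SRSF1 also acts in NMD and translation. SRSF1 (17:58003360-58007346) had 78.6 and 65.8 CPM in RBM25_sh, against 61.5 and 39.3 CPM in control_sh. Its log2 fold change was 0.52 ± 0.31 (SE, adjusted p = 0.366), with a 95% interval of −0.17 to 1.20. The groups did not overlap, and the lower RBM25_sh library was 1.07 times the higher control_sh library. The GC correction gave 0.39 ± 0.13 and an adjusted p of 0.0522, close to the threshold. SRSF2 (17:76734115-76737374) had 145.0 and 113.1 CPM in RBM25_sh, against 114.7 and 83.1 CPM in control_sh. The second RBM25_sh library lay under the first control_sh library, and the fold change was 0.38 ± 0.29 (adjusted p = 0.485). With the GC correction its groups separated, at 136.8 and 114.8 corrected CPM in RBM25_sh against 109.4 and 90.3 in control_sh, with 0.33 ± 0.15 (adjusted p = 0.118).

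Both values are uncertain at the level of the annotation. SRSF1 shares 56.6% of its exon bases with AC015813.2 on the same strand, which had at most 2 counts in any library, and 13.2% with AC015813.5 on the opposite strand. AC015813.5 had 39 and 25 counts in RBM25_sh, against 15 and 56 in control_sh. SRSF2 shares 36.7% of its exon bases with MFSD11 on the opposite strand, which had 315 and 376 counts in RBM25_sh, against 419 and 435 in control_sh. The strand setting of the counting is unstated, so reads of these pairs may have been assigned to either gene. Of the members' named pseudogenes, SRSF1P1 had 0 counts in every library and SRSF10P1 had 2 counts in control_sh replicate 2 and 0 elsewhere.

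SRSF3 and SRSF7 are small shuttling proteins that also serve as adaptors for mRNA export, and their poison exons end the frame soonest of the 6 printed. SRSF3 (6:36594353-36605600) had 265.9 and 264.9 CPM in RBM25_sh, against 229.3 and 227.2 CPM in control_sh. The SD of 2 libraries was 0.71 CPM in RBM25_sh and 1.52 CPM in control_sh, and the groups did not overlap. The test, which borrows its spread from all genes, gave 0.22 ± 0.26 (adjusted p = 0.676). After the GC correction the groups overlapped and the value was 0.01 ± 0.19. SRSF7 (2:38743599-38751494) had 106.5 and 102.4 CPM in RBM25_sh, against 104.7 and 121.5 CPM in control_sh. It was the member with a fold change below 0, at −0.11 ± 0.26 (adjusted p = 0.842) and −0.29 ± 0.19 after the correction. With the correction SRSF7 was at −0.58 without control_sh replicate 1 and at 0.05 without control_sh replicate 2. Each of these values rests on 1 control_sh library.

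SRSF4, SRSF5 and SRSF6 encode related proteins with paired RNA recognition motifs. SRSF5 (14:69726900-69772005) had the largest fold change of the 10. It had 290.3 and 227.9 CPM in RBM25_sh, against 144.5 and 187.1 CPM in control_sh, a log2 fold change of 0.64 ± 0.28 (SE, adjusted p = 0.229, unadjusted p = 0.0478). The groups did not overlap, and the lower RBM25_sh library was 1.22 times the higher control_sh library. With the correction the value was 0.42 ± 0.23 (adjusted p = 0.211), and the groups came close to touching at 234.4 corrected CPM in RBM25_sh replicate 2 and 232.9 in control_sh replicate 2. Its size depended on which control_sh library was kept. The corrected value was 0.89 without control_sh replicate 2 and 0.05 without control_sh replicate 1, each resting on 1 control_sh library. SRSF5 is among the members in which no stop-containing cassette exon was found by the definition above, though it has 1 annotated NMD transcript.

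SRSF4 (1:29147743-29181987) had 119.3 and 118.5 CPM in RBM25_sh, against 97.3 and 106.7 CPM in control_sh, and the groups did not overlap. Its log2 fold change was 0.22 ± 0.26 (adjusted p = 0.677), and 0.04 ± 0.19 with the correction, where the groups overlapped. SRSF6 (20:43457928-43464247) had 392.0 and 335.3 CPM in RBM25_sh, against 361.2 and 286.6 CPM in control_sh. The groups overlapped, and the fold change was 0.17 ± 0.27 (adjusted p = 0.768). On the log2 scale replicate 2 minus replicate 1 was −0.23 in RBM25_sh and −0.33 in control_sh, both larger in size than the difference between the groups. The GC correction turned its sign, to −0.02 ± 0.14.

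SRSF10 is known as a repressor of splicing when it loses phosphate during heat shock and mitosis. SRSF11 is a larger SR-related protein of the spliceosome. TRA2B binds GAA-rich exons and includes them. SRSF10 (1:23964804-23980927) had 227.5 and 180.4 CPM in RBM25_sh, against 185.9 and 137.2 CPM in control_sh, with overlapping groups and a log2 fold change of 0.34 ± 0.29 (adjusted p = 0.540). SRSF11 (1:70205682-70253052) had 352.2 and 266.4 CPM in RBM25_sh, against 263.8 and 204.5 CPM in control_sh. Its groups were apart by 1.01 times only, with 0.40 ± 0.29 (adjusted p = 0.455), and they overlapped after the correction, at 0.15 ± 0.15. SRSF11 had the lowest GC content of the 10.

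TRA2B (3:185915906-185938136) had 196.5 and 189.4 CPM in RBM25_sh, against 160.7 and 146.5 CPM in control_sh. Replicates were close together and the lower RBM25_sh library was 1.18 times the higher control_sh library. The fold change was 0.33 ± 0.26 (adjusted p = 0.508), and 0.15 ± 0.15 with the correction (adjusted p = 0.488). The 95% intervals of the 10 members with TMM scaling reached as low as −0.71 (SRSF7) and as high as 1.28 (SRSF5), and those of 9 of 10 members spanned 0.

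The members differed in how their replicates behaved. In RBM25_sh, replicate 2 was below replicate 1 for all 10, by −0.40 (SRSF11) to −0.01 (SRSF3 and SRSF4) on the log2 scale. In control_sh, replicate 2 was below replicate 1 for 7 of 10, most for SRSF1 at −0.64, and above it for SRSF4 at 0.13, SRSF7 at 0.21 and SRSF5 at 0.37. SRSF5 was thus the member whose replicates ran in opposite directions in the 2 groups by the widest margin.

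**Figure D3:**
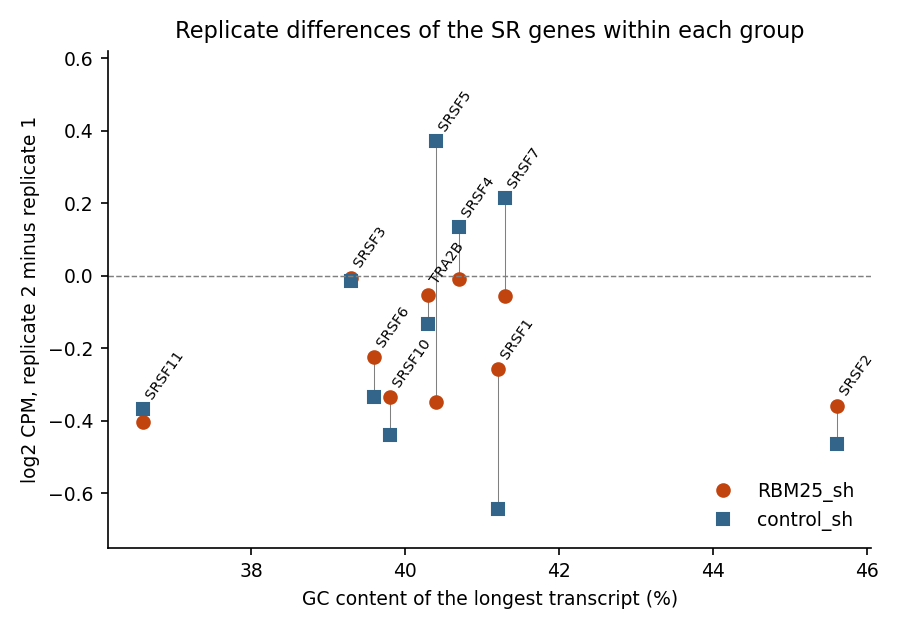
Log2 ratio of CPM, replicate 2 minus replicate 1, of each SR gene in RBM25_sh (orange circles) and control_sh (blue squares), against the GC content of its longest transcript in percent. In RBM25_sh all 10 points lie below 0, and in control_sh SRSF4, SRSF5 and SRSF7 lie above 0.

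Levels between the genes were compared as FPKM, which divide by gene length. SRSF6 was the most abundant in every library, at 78.2 ± 11.3 FPKM in RBM25_sh and 67.8 ± 11.2 FPKM in control_sh (SD, n = 2 each). It stood at percentile 97.5 of the genes tested in RBM25_sh and at percentile 97.4 in control_sh. Below it came SRSF5 at 47.9 ± 9.8 FPKM in RBM25_sh and 29.7 ± 5.3 in control_sh, and SRSF2 at 42.3 ± 8.8 FPKM in RBM25_sh and 31.5 ± 7.2 in control_sh. SRSF3 had 36.8 ± 1.4 FPKM in RBM25_sh and 30.8 ± 0.29 in control_sh, and SRSF11 had 36.1 ± 8.3 in RBM25_sh and 26.6 ± 4.8 in control_sh. SRSF7 had 25.5 ± 1.6 FPKM in RBM25_sh and 26.9 ± 2.7 in control_sh. In RBM25_sh SRSF5, SRSF2, SRSF3 and SRSF11 each overlapped a neighbour in the order, and SRSF7 lay below them without overlap. In control_sh all 5 overlapped a neighbour.

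In these FPKM the other 4 genes formed a lower tier. SRSF1 had 21.4 ± 3.4 FPKM in RBM25_sh and 14.5 ± 4.5 in control_sh, and SRSF10 had 19.6 ± 3.9 in RBM25_sh and 15.1 ± 3.3 in control_sh. TRA2B had 16.2 ± 0.98 FPKM in RBM25_sh and 12.5 ± 0.85 in control_sh, and SRSF4 had 13.2 ± 0.52 in RBM25_sh and 11.0 ± 0.69 in control_sh, the lowest of the 10 means. In RBM25_sh the lowest library of the upper 6 genes, at 24.4 FPKM for SRSF7, lay just above the highest of the lower 4, at 23.8 FPKM for SRSF1. In control_sh the same gap ran between 23.1 FPKM for SRSF11 and 17.7 FPKM for SRSF1. Even SRSF4 was at percentile 78.2 of the genes tested in RBM25_sh and at percentile 75.8 in control_sh.

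The order depends on the length used. The listed length joins all annotated exons of a gene, 11769 bases for TRA2B and 10277 for SRSF10, where the principal transcript has 2952 and 1631 bases. Per length of the principal transcript, an alternative chosen after seeing the data, SRSF10 came first with means of 124 FPKM in RBM25_sh and 95.2 in control_sh. SRSF6 then ranked 3 of 10 in RBM25_sh and 2 of 10 in control_sh. The tiers did not hold with this length. TRA2B ranked 5 in RBM25_sh and 6 in control_sh, SRSF4 ranked 7 and 8, and SRSF2 ranked 9 in both groups.

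**Figure D4:**
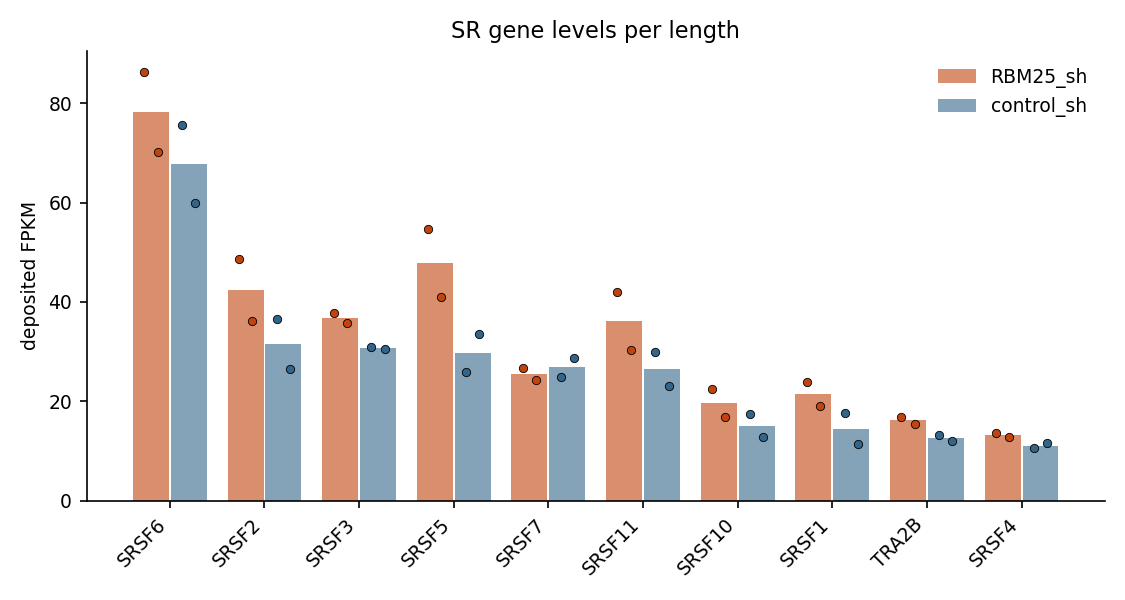
Deposited FPKM (linear axis from 0) of the 10 SR genes, with bars at the mean of 2 libraries, RBM25_sh in orange left of control_sh in blue, and a point for each library. Genes run from high to low by their control_sh mean; SRSF6 stands highest in every library and SRSF4 has the lowest mean in both groups.

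Ratios of related genes within a library do not depend on the scaling of that library, and 5 were computed without a test, since an exact permutation of 2 against 2 cannot go below p = 0.333. The FPKM ratio of SRSF3 to SRSF7 was 1.42 and 1.47 in RBM25_sh, against 1.25 and 1.06 in control_sh. That of SRSF5 to SRSF6 was 0.635 and 0.583 in RBM25_sh, against 0.343 and 0.560 in control_sh, and that of TRA2B to its paralog TRA2A was 0.628 and 0.717 in RBM25_sh, against 0.558 and 0.553 in control_sh. In these 3 pairs the RBM25_sh libraries lay above the control_sh libraries, and how often other gene pairs separate was not computed. The ratio of SRSF4 to SRSF6 was 0.157 and 0.182 in RBM25_sh, against 0.139 and 0.192 in control_sh, and that of SRSF1 to SRSF9 was 1.22 and 0.649 in RBM25_sh, against 0.892 and 0.244 in control_sh, and here the groups overlapped. SRSF9 shares 46.2% of its exon bases with GATC on the opposite strand.

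Members could be grouped by how log2 CPM without the GC correction ran over the 4 libraries, each gene centred on its own mean. SRSF2 and SRSF10 were nearest each other, with a Euclidean distance of 0.054, and SRSF11 lay 0.076 from SRSF2. These 3 were highest in RBM25_sh replicate 1 and lowest in control_sh replicate 2, as were SRSF1, SRSF3, SRSF6 and TRA2B. SRSF3 and SRSF4 formed another pair at 0.104, with RBM25_sh libraries at 0.11 and 0.11 for SRSF3 and 0.12 and 0.11 for SRSF4, against control_sh libraries at −0.10 and −0.12 for SRSF3 and −0.18 and −0.04 for SRSF4. SRSF5 was the most isolated, 0.515 from its nearest member, SRSF4. The mean profile of the members was 0.26 and 0.06 in RBM25_sh, against −0.07 and −0.24 in control_sh. The candidates were 6236 genes outside the lists with an average log2 CPM of at least 5. Nearest to the mean profile were SLBP at 0.02, MTMR1 at 0.049 and MAPK14 at 0.05. They encode a histone mRNA stem-loop binder, a lipid phosphatase and the p38 alpha kinase. With the GC correction their log2 fold changes were 0.35, 0.33 and 0.31, against a median of 0.15 for the members. Distances were not computed on corrected values, so these likenesses hold for uncorrected CPM only.

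Around the SR genes, lists of splicing and decay factors were read in the same fit, and edgeR called 0 genes of any of the 5 lists at the adjusted threshold. At an unadjusted p of 0.05 it picked 0 of 8 other SR and Tra2 genes, 1 of 13 kinase and import genes, 3 of 16 coactivators, 1 of 16 genes of the hnRNP list and 2 of 16 decay factors, each a smaller share than the 21.4% of all genes tested. limma-voom called 0 in each of these 5 lists, and DESeq2 called 2 decay factors, DHX34 and SMG8, higher and 0 genes in the other 4 lists. Over all genes tested DESeq2 called 2.4% higher and 4.34% lower, and limma-voom 0.522% higher and 1.8% lower. Of 8 tested genes of the other SR and Tra2 group, 6 had a log2 fold change above 0 and the median was 0.31, close to the 0.33 of the 10 members. SREK1, an SR-related regulator, had 208.3 and 157.5 CPM in RBM25_sh, against 162.9 and 108.0 in control_sh (0.43 ± 0.31, adjusted p = 0.452). SRSF8, a close relative of SRSF2, had 63.9 and 57.7 CPM in RBM25_sh, against 51.4 and 44.4 in control_sh (0.35 ± 0.27, adjusted p = 0.500). RSRP1, an arginine- and serine-rich protein gene, had 67.5 and 59.7 CPM in RBM25_sh, against 46.2 and 51.8 in control_sh. With the GC correction RSRP1 was at 0.42 ± 0.14 (adjusted p = 0.0490), the 1 gene called of the 8 tested in this list. Over all genes tested the corrected fit called 12.8% higher and 15.3% lower. RSRP1 shares 6.3% of its exon bases with AL928711.1 on the same strand.

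The 13 genes of kinases that phosphorylate SR proteins and of their import had a median of 0.16 and 0.05 with the correction. CLK4, a kinase of nuclear speckles, had 20.4 and 14.97 CPM in RBM25_sh, against 13.2 and 7.59 in control_sh (0.77 ± 0.36, adjusted p = 0.250). With the correction CLK4 was at 0.55 ± 0.18 (adjusted p = 0.0480), the 1 gene called of the 13. Over all genes tested the corrected fit called 12.8% higher and 15.3% lower. PRPF4B, a kinase of spliceosome assembly, had 161.7 and 118.6 CPM in RBM25_sh, against 108.3 and 80.4 in control_sh (0.57 ± 0.30, adjusted p = 0.303). SRPK3, the muscle member of the SRPK family, had 7 and 13 counts in RBM25_sh, against 17 and 72 in control_sh, and shares 30.2% of its exon bases with PLXNB3 on the same strand (−1.96 ± 0.71, adjusted p = 0.151).

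The 16 SR-related coactivators and speckle scaffolds had the highest median of the 5 lists, 0.41, with 13 of 16 above 0, and 0.28 with the GC correction. The corrected fit called 5 of 16 higher and 0 lower, against the 12.8% and 15.3% of all genes tested. U2AF2, the large subunit of the factor that SR proteins recruit to the 3′ splice site, had 196.5 and 292.1 CPM in RBM25_sh, against 100.2 and 179.4 in control_sh (0.81 ± 0.35, adjusted p = 0.220; corrected 1.04 ± 0.14, adjusted p = 0.00125). LUC7L, a U1 snRNP-associated factor, had 41.0 and 48.4 CPM in RBM25_sh, against 21.2 and 28.5 in control_sh (0.85 ± 0.30, adjusted p = 0.144; corrected 0.94 ± 0.15, adjusted p = 0.00276). SON, a speckle scaffold, had 628.1 and 582.5 CPM in RBM25_sh, against 432.0 and 296.4 in control_sh (0.73 ± 0.28, adjusted p = 0.178; corrected 0.71 ± 0.18, adjusted p = 0.0172). SRRM1 and SRRM2, coactivators that bridge SR proteins on exons, were the other 2, at corrected log2 fold changes of 0.41 ± 0.14 and 0.63 ± 0.17. Unlike most SR genes, U2AF2 and LUC7L were higher in replicate 2 of both groups.

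The hnRNP list, of genes whose proteins often oppose SR proteins at exons, also holds RBM39, an SR-related coactivator that is no hnRNP. It had a median of 0.05 over 16 genes and −0.13 with the correction. The corrected fit called 0 of the 16, where 12.8% of all genes tested were called higher and 15.3% lower. HNRNPA3, of the same subfamily as HNRNPA1, had 813.4 and 764.2 CPM in RBM25_sh, against 511.3 and 537.4 in control_sh (0.59 ± 0.25, adjusted p = 0.218). HNRNPA1, the best known antagonist of SRSF1, had 1097.3 and 1173.1 CPM in RBM25_sh, against 1276.9 and 1525.0 in control_sh (−0.30 ± 0.25, adjusted p = 0.530). SYNCRIP, also called hnRNP Q, had 465.9 and 360.5 CPM in RBM25_sh, against 376.6 and 243.8 in control_sh (0.41 ± 0.31, adjusted p = 0.470). HNRNPA1 and HNRNPA3 have many processed pseudogenes, and how reads matching several places were counted is unstated.

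The 16 factors of nonsense-mediated decay, the pathway that removes poison-exon transcripts, had a median of 0.11 and 0.17 with the correction. DHX34, a helicase that promotes UPF1 phosphorylation, had 69.5 and 108.4 CPM in RBM25_sh, against 29.7 and 46.6 in control_sh. Its groups did not overlap, at 1.22 ± 0.34 (adjusted p = 0.0827), and with the correction it was 1.43 ± 0.12 (adjusted p = 1.95e-04). SMG8, a partner of the SMG1 kinase, had 71.2 and 61.3 CPM in RBM25_sh, against 40.1 and 30.7 in control_sh (0.91 ± 0.29, adjusted p = 0.115; corrected 0.89 ± 0.15, adjusted p = 0.00399), and shares 11.2% of its exon bases with AC099850.2. UPF2, which bridges UPF1 and the exon junction complex, had 124.8 and 104.0 CPM in RBM25_sh, against 86.0 and 60.5 in control_sh (0.64 ± 0.29, adjusted p = 0.239; corrected 0.49 ± 0.12, adjusted p = 0.0153). With SMG5 at 0.60 ± 0.12 and CASC3 at 0.48 ± 0.12, 5 of 16 were called higher with the correction and 0 lower, where 12.8% and 15.3% of all genes tested were. The core helicase UPF1 had a corrected log2 fold change of 0.02 ± 0.12 (adjusted p = 0.931).

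**Figure D5:**
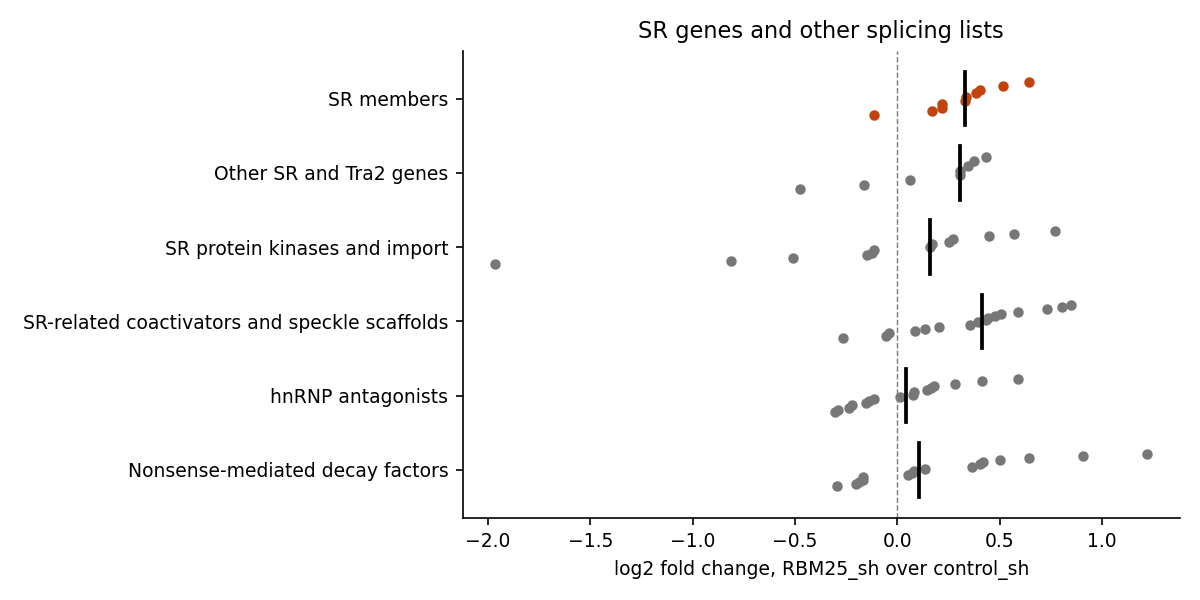
Log2 fold change, RBM25_sh over control_sh, of each tested gene of 6 lists from edgeR with TMM scaling, with points as genes (SR members in orange), spread vertically only for legibility, and a black bar at each list's median. Medians run from 0.05 for the hnRNP list to 0.41 for the coactivators, with the SR members at 0.33.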

How the data were processed

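By the titles of the 4 HCT116 libraries, 2 were RBM25 knockdown, here RBM25_sh, and 2 were its control, here control_sh. TRIzol extraction of total RNA and Illumina library preparation are given per the labels' protocols. TopHat2 2.0.9, Bowtie2 2.0.6, Cuffdiff 2.1.1 and Cufflinks 2.1.1 appear in the submitters' processing notes without roles. The counting tool and strand setting are not given in the sources read. The authors deposited whole-number counts per gene and FPKM per gene for each library. The deposited FPKM equal the counts over listed length and 1 factor per library, 0.951 and 0.998 times the total count in RBM25_sh and 1.06 and 1.1 times in control_sh, so they rest on the same reads. Gene positions equal GENCODE 29 (GRCh38) for all 58735 genes, and 27 names held as dates were taken from it.

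edgeR 4.0.16 (R 4.3.3; filterByExpr, TMM, quasi-likelihood F test, two-sided, Benjamini-Hochberg over 16091 genes, threshold 0.05) compared the groups with group as the only term. Intervals are at 95%. The SE is the log2 fold change over the square root of F. The GC correction entered each library's lowess trend (span 0.3) as offsets. It lowered the common biological coefficient of variation to 0.144, against 0.252 without it. Chi-square over its degrees of freedom between replicates was 27.7 in RBM25_sh and 70.9 in control_sh, far above sampling noise, so none was taken for a duplicate. Log2 CPM used a prior count of 2. The fits were tested on simulated data.

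The members and lists were chosen with earlier results of these data known. Named are all members, RBM25, per list the 3 genes of smallest p and those called, and the 3 genes nearest the members' mean profile. SRRM1, SRRM2, SMG5, CASC3 and UPF1 were named after their values were seen. Alternatives were DESeq2 1.42.0 (size factors, Wald test), library totals, other filters, limma 3.58.1 (voom, and trend on log2 FPKM plus 1 or 0.1), GC and length corrections, a replicate block and leaving out each library.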

Additional observations from a re-analysis of the deposited data

How the results depend on the processing

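The number of genes called was 491, and it came to 1438 with no filter, 1085 with DESeq2's Wald test, 215 and 268 with limma on log2(FPKM + 1) and log2(FPKM + 0.1), 4518 with the GC correction and 4734 with GC and length corrected. With the correction 2054 of the 4518 calls were higher in RBM25_sh, against 105 of 491 without it. Leaving out 1 library, with or without the correction, gave 204 to 6273. Members called stayed at 0 in these fits with all 4 libraries. Calls of members with 1 library left out rest on a lone library in a group and are not counted here. The members' median was 0.15 with the GC correction, 0.18 with length added and 0.00 to 0.46 with 1 library left out. Without SRSF1 and SRSF2, an alternative chosen after seeing the data, it was 0.27 with 0 of 8 called. RBM25 was −1.46 (adjusted p = 0.0572) on log2(FPKM + 1), where the pseudocount shrinks low genes, and −2.01 to −1.52 with 1 library left out. SRSF6 turned to −0.02 with the GC correction and −0.03 with length added. With 1 library left out SRSF3 ran from −0.23 to 0.27, SRSF4 from −0.23 to 0.34, SRSF6 from −0.11 to 0.35, SRSF7 from −0.58 to 0.05 and TRA2B from −0.01 to 0.41. The others kept their sign, SRSF1 at 0.23 to 0.88, SRSF2 at 0.17 to 0.64, SRSF5 at 0.05 to 0.89, SRSF10 at 0.13 to 0.58 and SRSF11 at 0.02 to 0.63. The cause was not tested, and a lone library was assumed to vary like the others.

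The labels number replicates 1 and 2 in both groups but do not say that a number marks a shared culture or day. Across genes, the deviation of replicate 1 from its group mean correlated at 0.76 between the groups. With 2 libraries in a group, the deviation of replicate 2 mirrors that of replicate 1 and adds no second value. Both groups showed the same GC trend between replicates, and its part in this correlation was not tested. With the replicate block 5722 of 16091 genes were called, and 2 of 10 members. These were SRSF1 at 0.55 (adjusted p = 0.0061) and SRSF5 at 0.65 (adjusted p = 0.00251). With the GC correction and the replicate block 6332 of 16091 genes were called, and 3 of 10 members, SRSF1, SRSF2 and SRSF5. The members' median was then 0.16 and SRSF6 was at −0.02. In both fits the share called was smaller among the members than among all genes tested.

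The SE of the members was 0.26 to 0.31 on the log2 scale without the GC correction and 0.13 to 0.23 with it, and 0 members passed the threshold in either fit.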
